A study of Caenorhabditis elegans with 3 samples.

Results

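The genes described here encode the enzymes of central carbon metabolism in the nematode Caenorhabditis elegans, that is glycolysis, gluconeogenesis, the tricarboxylic acid cycle, the glyoxylate shunt and the making and breaking of trehalose, glycogen, alcohols and glycerol. They were chosen by name, with earlier results of these data known, as a list of 50 enzyme genes in 14 roles. Of these, 43 had a probe naming that gene alone and a value on all 3 arrays, of 19264 genes or unnamed probes measured in all. RNA of late young adult hermaphrodites, the self-fertile sex, was compared with a wild-type mixed reference RNA on 2-channel arrays, 1 array for each of RNA preparations 1, 2 and 3. The labels name no strain, treatment or age in hours for the adults and no stages for the reference. Since nothing states that the preparations were grown separately, the p-values cover spread between preparations that may be technical, estimated for each gene from its own 3 values and, through limma's moderation, from the other genes. Every value is a log2 ratio of shares of RNA, not of amounts per animal, taken as likely adult over reference because the adult RNA is the second channel in the labels; the direction is not stated, and if it were the other, each "higher" would read "lower" and each rank would turn round.

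Glycolysis splits glucose to pyruvate, which pyruvate dehydrogenase passes to the tricarboxylic acid cycle in the mitochondria as acetyl-CoA. Unlike mammals, C. elegans also has the glyoxylate shunt, which bypasses the carbon-losing steps of the cycle and lets sugar be built from stored fat, and it is known for its use in embryos and in starved or dauer larvae. Trehalose, a glucose disaccharide that also protects against drying and osmotic stress, and glycogen are the worm's carbohydrate stores.

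Among the measured enzyme genes, 17 were higher in the adult and 6 lower past an adjusted p of 0.05 (limma with Benjamini-Hochberg adjustment over all genes), and 20 did not pass. A one-sample test without moderation called 0 of them and 0 of all genes after adjustment, with 17 of the 43 at an unadjusted p under 0.05. The share called by limma was 53.5%, against 38.4% of all genes; 39.5% were higher, against 19.6% of all genes, and 14% lower, against 18.8%. The hexokinase, pyruvate kinase, glycogen phosphorylase, glycerol-3-phosphate dehydrogenase 1 and trehalase 1 and 2 genes were among those higher. The lowest were adh-1, an alcohol dehydrogenase gene, icl-1, the gene of the glyoxylate shunt, and tps-1, a trehalose-6-phosphate synthase gene. The median of the 43 means was 0.23 ± 0.26 (SD of the 3 array medians), against 0.04 ± 0.03 over all genes; it was 0.11 without preparation 1, 0.41 without preparation 2 and 0.18 without preparation 3. At least 2-fold differences past the threshold were found for 8 higher members (18.6%, against 8.34% of all genes) and 3 lower ones (6.98%, against 8.79%).

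**Figure D1:**
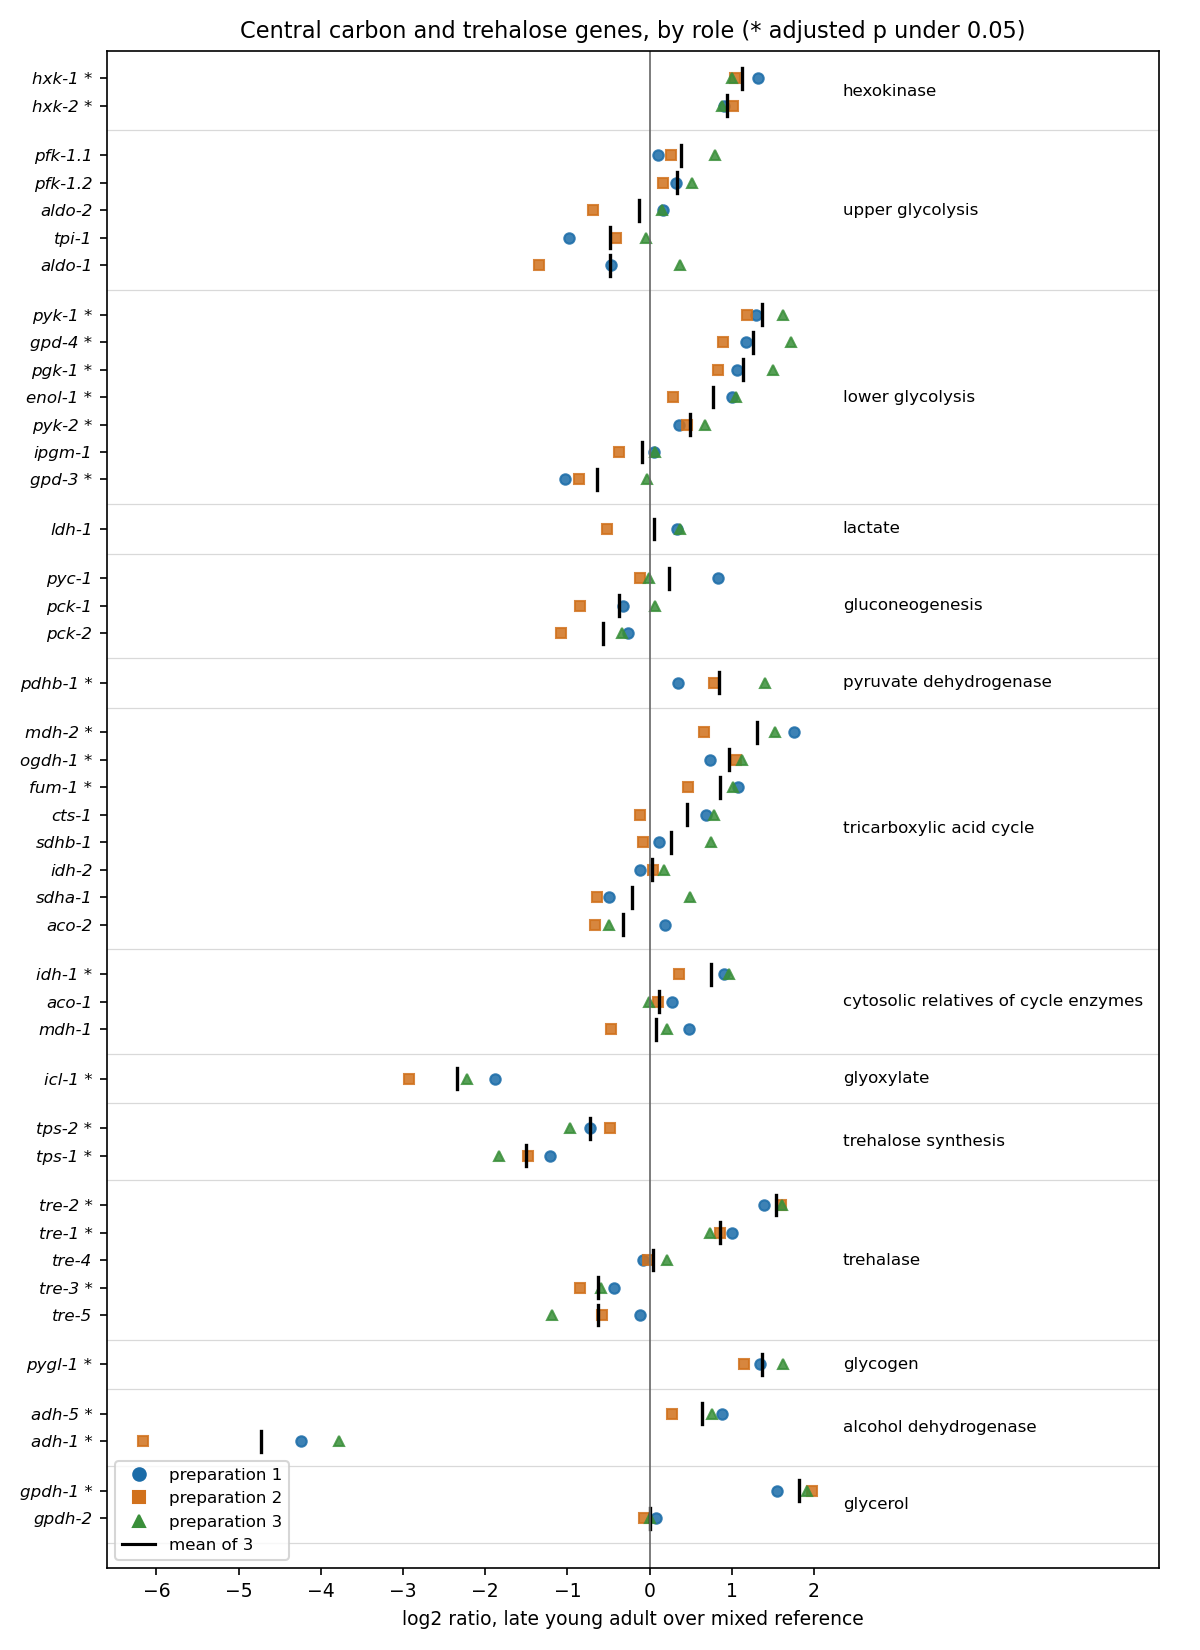
Log2 ratio of late young adult over mixed reference RNA (direction likely) for the 43 measured genes, ordered by role and by mean; each symbol is 1 preparation, the bar is the mean of 3, and a star marks an adjusted p under 0.05. adh-1 lies far to the left at a mean of −4.72, and gpdh-1 has the highest mean at 1.82.

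**Figure D2:**
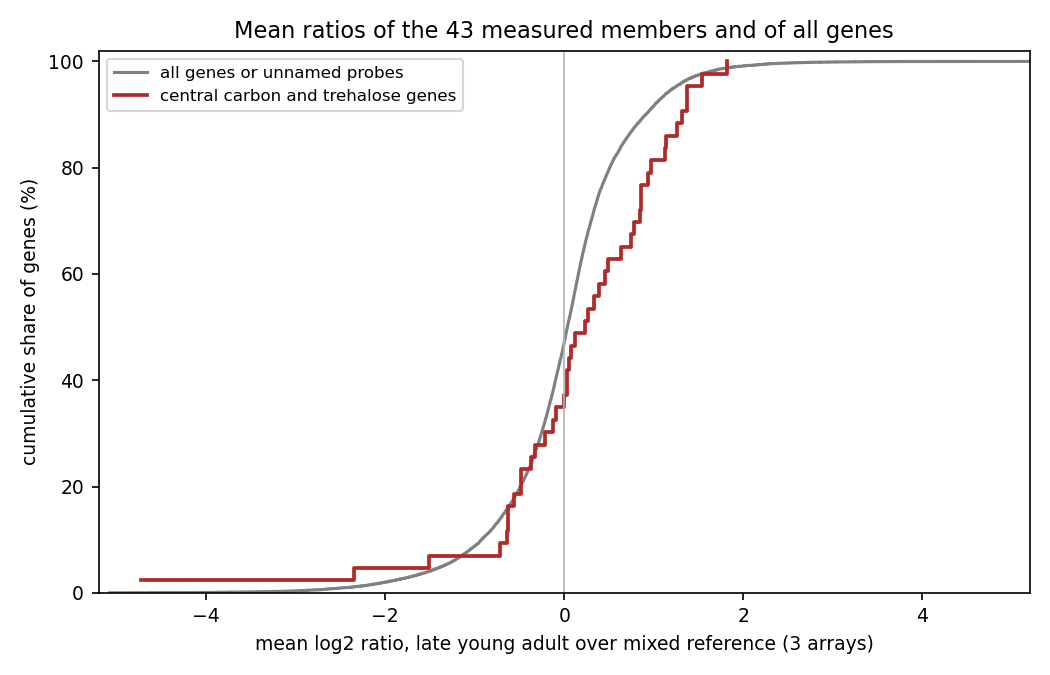
Cumulative share (percent) of genes against the mean log2 ratio for the 43 measured enzyme genes and for all 19264 genes or unnamed probes. The enzyme genes lie to the right of all genes over most of the range from 0 to their highest mean, 1.82. Above 1.82 only the curve of all genes still rises. The medians are 0.23 (0.11 to 0.41 with 1 preparation left out) and 0.04, and adh-1, icl-1 and tps-1 form the left tail.

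Germline markers were higher in the adult RNA. All 21 measured germline and oocyte markers were higher, with array medians between 1.91 and 2.13, while 11 of 20 neuron markers were lower and 0 higher (array medians −1.22 to −0.82) and 13 of 19 epidermis and cuticle markers were lower and 3 higher (array medians −2.17 to −0.99). Of 15 body wall muscle markers 3 were higher and 3 lower, shares close to those over all genes, with array medians of 0.17, −0.14 and 0.67. Of 19 intestine markers 6 were higher (31.6%) and 2 lower (10.5%). Of 13 pharynx markers 1 was higher (7.69%) and 5 lower (38.5%). Over all genes 19.6% were higher and 18.8% lower, while 55% of neuron and 68.4% of epidermis and cuticle markers were lower. In whole animals fewer cells of a type and less RNA per cell cannot be told apart, and the part of these tissue shares in the values of the enzyme genes was not tested. Across the 43 genes the arrays correlated at Pearson r = 0.929 (1 and 2), 0.902 (1 and 3) and 0.911 (2 and 3), and over all genes at 0.763, 0.773 and 0.900. By rank (Spearman) these were 0.877, 0.864 and 0.874 for the 43, and 0.684, 0.699 and 0.858 over all genes. The spread between preparations was not smaller for the 43, with a median SD of 0.34 against 0.27 over all genes. The arrays share the reference RNA and the channel layout, and genes are not independent replicates.

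Hexokinases phosphorylate glucose at the entry into glycolysis, and both measured hexokinase genes were higher in the adult. The ratios of hxk-1 were 1.32, 1.04 and 1.01 in preparations 1, 2 and 3, a mean of 1.12 ± 0.17 (SD, n = 3, as for all means below), 2.18-fold higher (limma adjusted p = 0.000981). Those of hxk-2 were 0.90, 1.02 and 0.88, a mean of 0.94 ± 0.07 (limma adjusted p = 0.00191). The 3 preparations lay close together for both genes, and no value came near 0. The third family member, hxk-3, and the glucose-6-phosphate isomerase gene gpi-1 were not analysed here, having no probe of their own.

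The next steps, down to the triose phosphates, showed 0 of 5 genes called by limma, where 1 of the 5 had an unadjusted p under 0.05 (tpi-1). Phosphofructokinase catalyses the committed step of glycolysis, and its genes pfk-1.1 and pfk-1.2 lay at 0.39 ± 0.37 and 0.34 ± 0.18, above 0 on every array. Aldolase cleaves fructose bisphosphate; aldo-1 lay at −0.48 ± 0.86 and aldo-2 at −0.12 ± 0.48. Both aldolase genes were lowest in preparation 2, at −1.35 and −0.68. The triosephosphate isomerase gene tpi-1 lay at −0.48 ± 0.47, below 0 on all 3 arrays (limma adjusted p = 0.0998). Without preparation 3, aldo-1 and tpi-1 passed as lower. The 95% intervals of the 5 means reached from −1.15 for aldo-1 to 0.81 for pfk-1.1, so a 2-fold fall of aldo-1 is within what 3 arrays allow.

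The later steps of glycolysis, from glyceraldehyde-3-phosphate to pyruvate, had 5 of 7 genes higher (71.4%, against 19.6% of all genes) and 1 lower (14.3%, against 18.8%). The 2 genes of glyceraldehyde-3-phosphate dehydrogenase with a probe of their own went opposite ways. The ratios of gpd-4 were 1.17, 0.89 and 1.72, a mean of 1.26 ± 0.42, 2.40-fold higher (limma adjusted p = 0.0014). Those of gpd-3 were −1.04, −0.86 and −0.03, a mean of −0.64 ± 0.53, 1.56-fold lower (limma adjusted p = 0.0458). The values of gpd-3 and gpd-4 did not overlap, although gpd-3 was near 0 in preparation 3. The call of gpd-3 was lost without preparation 1 (adjusted p = 0.161) and without preparation 2 (adjusted p = 0.131). The family has close copies, gpd-1 beside gpd-4 and gpd-2 beside gpd-3 in sequence, and gpd-2 and gpd-3 are next to each other in the genome with 0 protein-coding genes between; probes naming gpd-1 with gpd-4, or gpd-2 with another gene, were left out, and signal from a close copy may enter the values of gpd-3 and gpd-4.

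Phosphoglycerate kinase forms ATP in the next step, and its gene pgk-1 had ratios of 1.07, 0.83 and 1.5, a mean of 1.13 ± 0.34, 2.2-fold higher (limma adjusted p = 0.00166). The cofactor-independent phosphoglycerate mutase gene ipgm-1 lay at −0.09 ± 0.25 with a 95% interval of −0.47 to 0.30. That interval does not reach a 2-fold difference, but it leaves out the spread of the reference and any channel effect. The enolase gene enol-1 was higher at 0.78 ± 0.43 (limma adjusted p = 0.0141), with ratios of 1.00, 0.28 and 1.05. Preparation 2 was the low one for enol-1, and its call was lost without preparation 1 (adjusted p = 0.0508) or 3 (adjusted p = 0.0733).

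Pyruvate kinase makes pyruvate and ATP in the last step. pyk-1 had ratios of 1.3, 1.18 and 1.63, a mean of 1.37 ± 0.23, 2.58-fold higher (limma adjusted p = 0.000486). pyk-2 was higher by less, with ratios of 0.35, 0.46 and 0.67, a mean of 0.49 ± 0.16 (limma adjusted p = 0.0387); its call was lost without preparation 2 (adjusted p = 0.152) or 3 (adjusted p = 0.275). The lowest pyk-1 value lay above the highest pyk-2 value. The lactate dehydrogenase gene ldh-1, for the fermentative use of pyruvate, lay at 0.06 ± 0.50, with preparation 2 below 0 and the others above.

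None of the 3 measured genes of gluconeogenesis passed the limma test, and 1 of them, pck-2, had an unadjusted p under 0.05. Phosphoenolpyruvate carboxykinase starts the way back from oxaloacetate to sugar. pck-2 had ratios of −0.26, −1.08 and −0.34, a mean of −0.56 ± 0.45 (limma adjusted p = 0.0565), and passed as lower without preparation 1 or with arrays centred on their medians. pck-1 lay at −0.37 ± 0.46, and the pyruvate carboxylase gene pyc-1 at 0.23 ± 0.52, with preparation 1 at 0.83 and the others near 0. The fructose-1,6-bisphosphatase gene fbp-1 was not analysed here.

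Pyruvate dehydrogenase and the tricarboxylic acid cycle had some steps higher and none lower among the members. The gene of the pyruvate dehydrogenase E1 beta subunit, pdhb-1, had ratios of 0.35, 0.79 and 1.40, a mean of 0.85 ± 0.53 (limma adjusted p = 0.0146); its call was lost without preparation 3 (adjusted p = 0.112). The E1 alpha gene pdha-1 was not analysed here. In the cycle itself 3 of 8 genes were higher (37.5%, against 19.6% of all genes). The mitochondrial malate dehydrogenase gene mdh-2, for the step that regenerates oxaloacetate, had ratios of 1.75, 0.66 and 1.52, a mean of 1.31 ± 0.58, 2.48-fold (limma adjusted p = 0.00234). The gene of the oxoglutarate dehydrogenase E1 subunit, ogdh-1, had 0.73, 1.05 and 1.12, a mean of 0.97 ± 0.21 (limma adjusted p = 0.00217). The fumarase gene fum-1 had 1.08, 0.47 and 1.02, a mean of 0.86 ± 0.34 (limma adjusted p = 0.00631). For mdh-2 and fum-1 preparation 2 was the low one, and for ogdh-1 preparation 1.

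The other 5 cycle genes did not pass. The citrate synthase gene cts-1 lay at 0.45 ± 0.50 and passed as higher without preparation 2. The mitochondrial aconitase gene aco-2 lay at −0.32 ± 0.45 and passed as lower without preparation 1. idh-2, of the mitochondrial NADP-dependent isocitrate dehydrogenase, had ratios of −0.12, 0.04 and 0.18, a mean of 0.03 ± 0.15 with a 95% interval of −0.33 to 0.40. The succinate dehydrogenase genes sdha-1, of the flavoprotein, and sdhb-1, of the iron-sulfur subunit, lay at −0.21 ± 0.61 and 0.26 ± 0.43. Both succinate dehydrogenase genes were highest in preparation 3, at 0.49 and 0.75, and below 0 in preparation 2.

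Of the cytosolic relatives of cycle enzymes, 1 of 3 was higher (33.3%, against 19.6% of all genes). The cytosolic NADP-dependent isocitrate dehydrogenase gene idh-1, a source of NADPH, had ratios of 0.90, 0.36 and 0.97, a mean of 0.74 ± 0.33 (limma adjusted p = 0.0118). Without preparation 3 its call was lost (adjusted p = 0.0761). The cytosolic malate dehydrogenase gene mdh-1 had ratios of 0.48, −0.47 and 0.21, a mean of 0.07 ± 0.48, on both sides of 0. The cytosolic aconitase gene aco-1, whose protein in mammals also acts as an iron-responsive RNA-binding protein, lay at 0.12 ± 0.14.

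The gene of the glyoxylate shunt was lower in the adult. A single gene, icl-1, encodes both isocitrate lyase and malate synthase in C. elegans. Its ratios were −1.87, −2.93 and −2.23, a mean of −2.34 ± 0.54, 5.08-fold lower (limma adjusted p = 0.000161). Its 3 probes had means of −2.32, −2.21 and −2.50, so the probes differed by less than the preparations did, and preparation 2 was the lowest on each probe. icl-1 stood at percentile 1.13 of all genes (98.9 with the direction turned). Of 18 measured genes from a list of dauer and starvation genes, 11 were lower (61.1%, against 18.8% of all genes) and 1 higher (5.56%, against 19.6%). Their median was −2.02 ± 0.41 (SD of array medians). The list holds none of the enzyme genes described here and was chosen with earlier results of these data known.

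Trehalose genes moved in both directions, with both synthase genes lower and 2 of 5 trehalase genes higher. Trehalose-6-phosphate synthase joins the glucose units. The ratios of tps-1 were −1.22, −1.48 and −1.83, a mean of −1.51 ± 0.31, 2.84-fold lower (limma adjusted p = 0.000414). Those of tps-2 were −0.72, −0.48 and −0.96, a mean of −0.72 ± 0.24 (limma adjusted p = 0.00953). Every value of tps-1 lay below every value of tps-2, and the call of tps-2 was lost without preparation 3 (adjusted p = 0.0866). Both genes were lowest in preparation 3, the preparation in which most members were highest.

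Trehalases split trehalose into glucose. tre-2 had ratios of 1.40, 1.6 and 1.61, a mean of 1.54 ± 0.12, 2.90-fold higher (limma adjusted p = 0.000234). tre-1 had 1.00, 0.85 and 0.74, a mean of 0.86 ± 0.13 (limma adjusted p = 0.00306). The preparations lay close together for both genes, and all values were well above 0. tre-3 was lower, at −0.43, −0.85 and −0.60, a mean of −0.63 ± 0.21 (limma adjusted p = 0.0163), a call that was lost without preparation 2 (adjusted p = 0.147) or 3 (adjusted p = 0.0672). tre-5 had nearly the same mean as tre-3, −0.63 ± 0.54, from ratios of −0.12, −0.58 and −1.18, and missed the threshold narrowly (limma adjusted p = 0.05002). It passed as lower without preparation 1, with arrays centred on their medians, with quantile normalization and with robust moderation. tre-4 had −0.08, −0.02 and 0.21, a mean of 0.04 ± 0.15, with a 95% interval of −0.33 to 0.40. In order of mean the trehalases ran tre-2, tre-1, tre-4, then tre-3 and tre-5, and the last 2 of these overlapped.

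Glycogen phosphorylase releases glucose units from glycogen, and its gene pygl-1 was higher, with ratios of 1.34, 1.15 and 1.62, a mean of 1.37 ± 0.24, 2.59-fold (limma adjusted p = 0.000491). Its 2 probes had means of 1.49 and 1.25. The glycogen synthase gene gsy-1 was not analysed here, so the making and the breaking of glycogen cannot be set side by side from the members.

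Of the family pairs measured, the 2 alcohol dehydrogenase genes lay farthest apart. adh-1, of an enzyme that oxidises short-chain alcohols, had ratios of −4.24, −6.16 and −3.78, a mean of −4.72 ± 1.26, 26.4-fold lower (limma adjusted p = 0.000111). It was the fifth lowest of all measured genes or unnamed probes (the fifth highest with the direction turned), and preparation 2 gave the extreme value. No spot intensities were used here, so how faint either channel was at the adh-1 probe is not known and the fold is uncertain. adh-5, of the class that handles formaldehyde bound to glutathione, had 0.88, 0.27 and 0.76, a mean of 0.64 ± 0.33, 1.55-fold higher (limma adjusted p = 0.0222); its call was lost without preparation 1 (adjusted p = 0.0568) or 3 (adjusted p = 0.111).

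Glycerol-3-phosphate dehydrogenase leads from glycolysis to glycerol, the osmolyte that C. elegans makes under hyperosmotic stress, and gpdh-1 is the gene known to be induced then. Its ratios were 1.55, 1.98 and 1.92, a mean of 1.82 ± 0.23, 3.52-fold higher (limma adjusted p = 0.000152), the highest mean of the 43 genes (the lowest with the direction turned). gpdh-2 had 0.07, −0.07 and 0.00, a mean of 0.00 ± 0.07 with a 95% interval of −0.35 to 0.35. The lowest gpdh-1 value was far above the highest gpdh-2 value.

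Members of the same enzyme family were set against each other on each array, in 22 pairs with both genes measured of 29 listed; these are differences of log2 ratios, not of levels. In 18 of the 22 pairs the difference had the same sign on all 3 arrays. The pairs are not independent, since 10 of them combine the same 5 trehalase genes. The same count was not made over other pairs of genes. An exact two-sided sign permutation test over 3 arrays cannot go below p = 0.25, the value in each of these 18 pairs (0.306 adjusted over the pairs), so no pair can be called by it. adh-1 lay below adh-5 by a mean difference of −5.36 ± 0.97, gpd-4 above gpd-3 by 1.90 ± 0.26 and gpdh-1 above gpdh-2 by 1.81 ± 0.30. mdh-1 minus mdh-2 was −1.28, −1.13 and −1.31, a mean of −1.24 ± 0.10. The SD of that difference was smaller than that of either gene, and both genes were lowest in preparation 2. pyk-1 minus pyk-2 was 0.88 ± 0.13, idh-1 minus idh-2 0.71 ± 0.36, and tps-1 minus tps-2 −0.78 ± 0.26. Among the 10 trehalase pairs the widest were tre-2 minus tre-5 at 2.16 ± 0.64 and tre-2 minus tre-3 at 2.16 ± 0.31, and tre-3 minus tre-5 was 0.00 ± 0.51. The 4 pairs whose sign changed between arrays were the phosphofructokinases, the aldolases, the carboxykinases and tre-3 with tre-5. hxk-1 minus hxk-2 was 0.19 ± 0.20, as small as its spread.

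**Figure D3:**
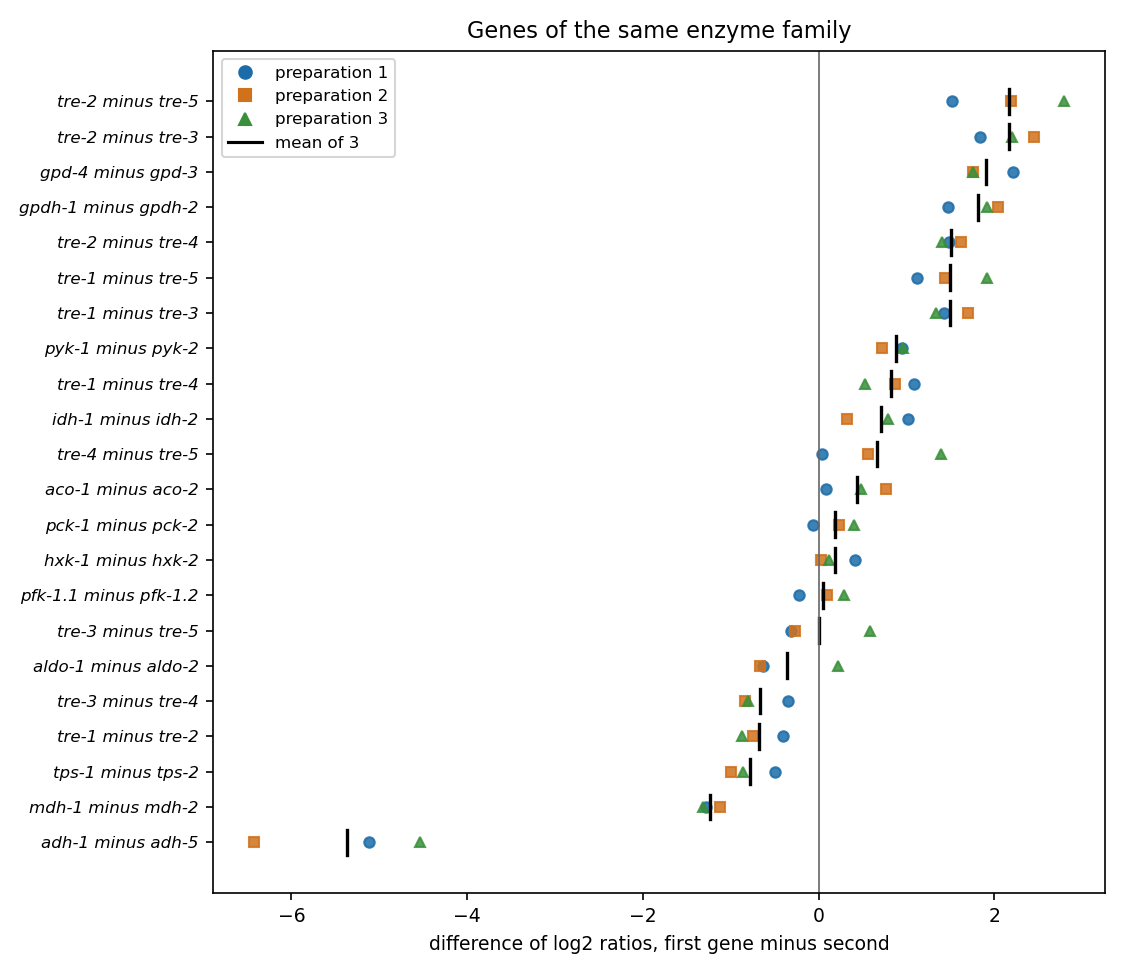
Difference of log2 ratios (first gene minus second) for 22 pairs of genes of the same enzyme family; each symbol is 1 preparation and the bar is the mean of 3. In 18 pairs all 3 symbols lie on the same side of 0, and the adh-1 and adh-5 pair stands apart at −5.36. The pairs of trehalases share genes and are not independent.

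Further genes of the same pathways were taken from lists of known roles, also chosen with earlier results of these data known. Of 36 measured, 14 were higher and 4 lower, 38.9% and 11.1%, against 19.6% and 18.8% of all genes, with a median of 0.40 ± 0.12 (SD of array medians). Among 15 further genes of the pyruvate dehydrogenase complex and the cycle, 7 were higher (46.7%) and 1 lower (6.67%). The succinyl-CoA ligase genes suca-1 and sucl-2 lay at 1.67 ± 0.42 and 1.58 ± 0.43. dlst-1, of the E2 subunit of the oxoglutarate dehydrogenase complex, lay at 1.44 ± 0.33 and dld-1, of the E3 subunit it shares with pyruvate dehydrogenase, at 1.32 ± 0.36. Together with ogdh-1 at 0.97 these were the 3 catalytic subunits of the oxoglutarate dehydrogenase complex, all higher. This was not particular to that complex. dlat-1, of the E2 subunit of pyruvate dehydrogenase and named after its value was seen, was also higher at 1.15 ± 0.39, as was pdhb-1 at 0.85. The 1 lower gene, named after its value was seen, was idhg-2, of a gamma subunit of the NAD-dependent isocitrate dehydrogenase, at −1.25 ± 0.39. Further succinate dehydrogenase genes were also named after their values were seen. Of these, sdha-2 was higher at 1.19 ± 0.38, unlike sdha-1, while sdhd-1 at 0.26 ± 0.39 and mev-1 at 0.01 ± 0.24 did not pass.

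Of 3 measured genes of the pentose phosphate pathway, which makes NADPH and ribose, 2 were higher, the transketolase gene tkt-1 at 1.69 ± 0.22 and T25B9.9 at 0.93 ± 0.21. Of 8 further glycogen and trehalose genes 3 were higher (37.5%, against 19.6% of all genes) and 2 lower (25%, against 18.8%). The glycogenin genes, whose proteins prime glycogen, went opposite ways, with gyg-2 at 1.26 ± 0.22 and gyg-1 at −0.87 ± 0.62. pgm-1, a phosphoglucomutase gene, lay at 0.90 ± 0.33 and aagr-2, of an acid alpha-glucosidase relative, at 0.56 ± 0.32; the other lower gene, named after its value was seen, was aagr-4 at −0.55 ± 0.09. The trehalose-6-phosphate phosphatase gene gob-1, also named after its value was seen, lay at 0.05 ± 0.18 and did not pass, unlike the synthase genes. Of 10 genes of pyruvate handling, shuttles and transport, 2 were higher, the aspartate aminotransferase gene got-2.1 at 1.19 ± 0.10 and the malic enzyme gene men-1 at 1.14 ± 0.15, and 1 was lower, the mitochondrial solute carrier gene misc-1 at −0.64 ± 0.37; this share of higher genes was close to that over all genes.

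The preparations differed for these genes in a common way. The medians of the 43 genes were 0.33, −0.02 and 0.49 in preparations 1, 2 and 3, against 0.06, 0.01 and 0.01 over all genes. Preparation 3 lay above preparation 2 for 35 of the 43 (81.4%), against 51.7% of all genes, by a median of 0.47. The same was seen for cytosolic ribosomal protein genes, where preparation 3 was above in 40 of 41 (97.6%) by a median of 0.70, and for body wall muscle markers, where it was above in 13 of 15 (86.7%) by a median of 0.50. The tissue lists were not part of this comparison as planned. In the others preparation 3 was above for 76.2% of germline, 65% of neuron, 63.2% of epidermis and cuticle, 53.8% of pharynx and 52.6% of intestine markers. The part of muscle RNA in the enzyme genes' values was not tested. In all 7 genes of the later glycolytic steps and all 8 cycle genes, preparation 3 was above preparation 2. The difference, preparation 3 minus 2, was −0.60 for tre-5, −0.48 for tps-2 and −0.35 for tps-1. It was below 0 by less for hxk-2 (−0.13), tre-1 (−0.12), aco-1 (−0.11), gpdh-1 (−0.06) and hxk-1 (−0.04). Preparation, array and the date in the array's label cannot be told apart. Of the 23 called genes, 15 were called whichever preparation was left out. The same count was not made over all genes, so whether this share is unusual is not known. The 15 were hxk-1, hxk-2, gpd-4, pgk-1, pyk-1, ogdh-1, fum-1, mdh-2, tre-1, tre-2, pygl-1 and gpdh-1 among the higher ones and adh-1, icl-1 and tps-1 among the lower.

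**Figure D4:**
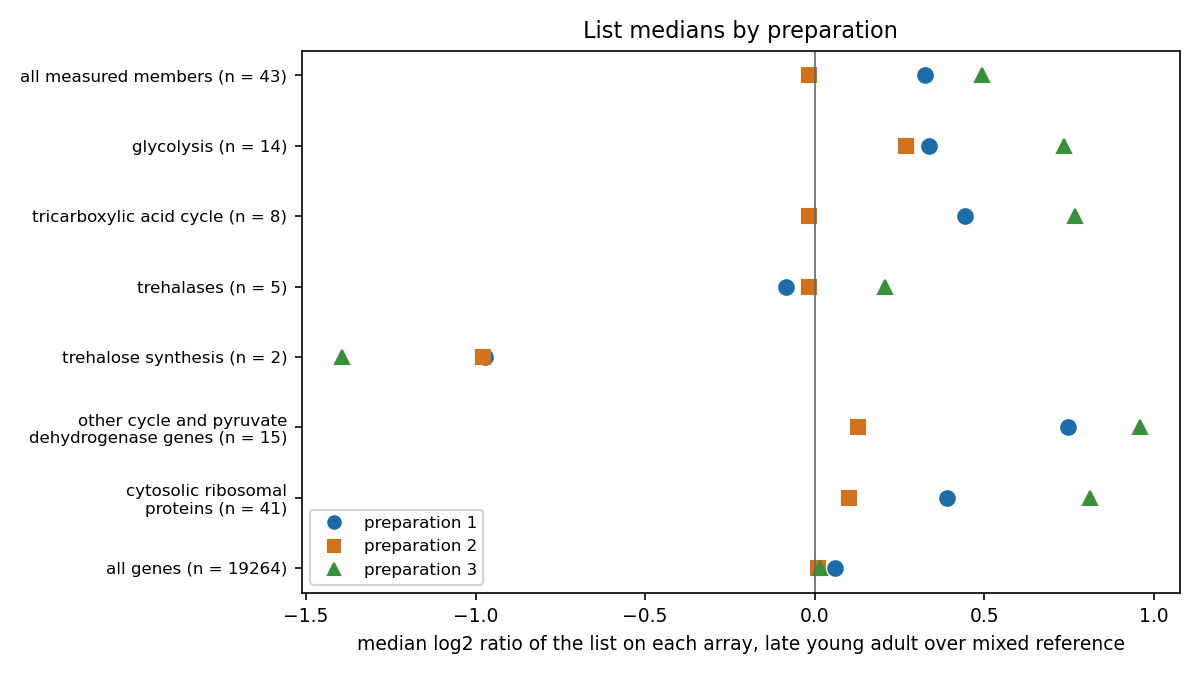
Median log2 ratio (likely adult over reference) of gene lists on each array; each symbol is 1 preparation. Preparation 3 lies above preparation 2 for glycolysis, the cycle and the ribosomal proteins (0.81 against 0.10), and below it for the 2 trehalose synthase genes; the medians over all genes lie between 0.01 and 0.06.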

How the data were processed

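The deposited table lists log2 ratios of 20000 probes. No label states the unit; as base-2 logarithms, 99.98% of them come from ratios in whole steps of 0.001 (tolerance 0.01 of a step). The dyes and the authors' background correction, normalization and filters were not given in the sources used here. Arrays 1, 2 and 3 had 19913, 19833 and 19833 values and medians of 0.05, 0.01 and 0.02. Probe names came from the platform annotation, updated by gene identifier to RefSeq (WBcel235, names and gene order only). Probes with 1 symbol were averaged per symbol, which left 19264 genes or unnamed probes with a value on all 3 arrays; of the 43 members, 41 had 1 probe. The 7 members without a single-symbol probe were hxk-3, gpi-1, gpd-1, gpd-2, fbp-1, pdha-1 and gsy-1.

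Each gene's mean ratio was set against 0 by limma 3.58.1 under R 4.3.3 (intercept, eBayes), two-sided, Benjamini-Hochberg over all genes, threshold 0.05. The fit was run on simulated data with errors independent between genes and arrays. Such data cannot test effects that genes share through a preparation, the reference or a channel. The spread of the common reference is left out of this test, and with 1 channel layout throughout, a channel effect looks like a difference. Ratios compare shares of RNA, and the number of arrays limits the precision. Members and lists were chosen with earlier results of these data known. Array values were given for called members at least 2-fold from the reference and for family pairs with a called gene, and also, chosen after their values were seen, for enol-1, pdhb-1, ogdh-1, fum-1 and pck-2. Values of a single preparation, likewise chosen after they were seen, were given for aldo-1, aldo-2, pyc-1, sdha-1 and sdhb-1. Of the other pathway genes, up to 4 called genes a list, by size, were named, and also those marked as named after their values were seen. Alternatives were other normalizations, leaving out each preparation, single probes, genes measured on at least 2 arrays, robust or no moderation, and a threshold of 0.01.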

Additional observations from a re-analysis of the deposited data

How the results depend on the processing

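An unmoderated one-sample test, resting on 3 values a gene, called 0 members higher and 0 lower after adjustment (smallest adjusted p among them 0.0771), with 17 at an unadjusted p under 0.05, against 17 higher and 6 lower by limma (26 at an unadjusted p under 0.05); it called 0 of all genes. With 1 preparation left out, 12 to 17 members were higher and 4 to 8 lower, and the members' median ran from 0.11 to 0.41. The share of all genes called moved too, from 38.4% with all 3 preparations. It was 43.9% without preparation 1, 30.9% without preparation 2 and 27.8% without preparation 3. At a threshold of 0.01, 12 members were higher and 4 lower, with 25.5% of all genes called. Centring each array on its median gave 17 and 8, quantile normalization 17 and 7, and scaling to a common spread 17 and 6. Using genes with a value on at least 2 arrays lost gpd-3. No paired analysis was possible because the series has a single group. No member's call turned its direction under any of these alternatives, and the spread between 3 arrays limits what can be called: the 95% interval of a member that did not pass reached a median of 0.46 to either side.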
